A study of Homo sapiens with 9 samples.

Results

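The IFIT genes (interferon-induced proteins with tetratricopeptide repeats) measured here were IFIT1, IFIT2, IFIT3 and IFIT5, which are 4 of the 26485 genes in the deposited count table. They were taken by symbol, as a family chosen by its measured RNA levels, which stood far higher in 1 of the 3 groups of libraries, so levels and folds that involve that group describe how the genes were chosen and carry no test for them. The RNA came from HEK293, a human embryonic kidney cell line, with 3 libraries in each group: UBE3D knockout cells (KO) made with CRISPR/Cas9, knockout cells with UBE3D put back (addback) and wild-type cells (WT). UBE3D is an E3 ubiquitin ligase. The labels call each sample pooled, give RNA selected by its poly(A) tail and repeat the knockout procedure for all 9 samples, WT included. They do not say how UBE3D was put back or whether KO cells were 1 clone. Nor do they say that replicates were grown separately, so p-values measure the spread between libraries, which may be technical. Fewer cells that make a transcript and less of it per cell cannot be told apart in such bulk RNA.

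IFIT proteins are antiviral RNA-binding proteins that most resting cells make at low levels. When type I interferon binds its receptor, kinases at the receptor activate the transcription factor complex ISGF3, to which STAT2 and IRF9 belong, and this complex binds interferon-stimulated response elements in the promoters of IFIT and other genes. IFIT1 binds messenger RNA caps that lack ribose methylation and keeps them from translation, IFIT3 and IFIT2 join IFIT1 in complexes, and IFIT5 binds RNA with a triphosphate end.

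The genes lie side by side on the plus strand of chromosome 10 (hg38, positions as deposited with the counts). IFIT2 is at 89301949-89309276, IFIT3 at 89327819-89340968, IFIT1 at 89392546-89406487 and IFIT5 at 89414568-89421002. IFIT1B, a paralog at 89378056-89385205 between IFIT3 and IFIT1, was not a member and serves as a neighbour. Between IFIT1 and IFIT1B transcripts 38 windows of 50 bases were identical, so some reads could be assigned to either gene, and no other pair of these 5 genes shared such a window. The promoter windows of IFIT1, IFIT3, IFIT5 and IFIT1B are shown, with the core of the response element marked; none is shown for IFIT2. Each runs from 250 bases before the RefSeq transcription start to 50 bases after it (GRCh38.p14, plus strand), and capitals mark matches to GAAANNGAAA, searched on both strands, whose reverse complement is TTTCNNTTTC.
IFIT1, chr10:89392373-89392672: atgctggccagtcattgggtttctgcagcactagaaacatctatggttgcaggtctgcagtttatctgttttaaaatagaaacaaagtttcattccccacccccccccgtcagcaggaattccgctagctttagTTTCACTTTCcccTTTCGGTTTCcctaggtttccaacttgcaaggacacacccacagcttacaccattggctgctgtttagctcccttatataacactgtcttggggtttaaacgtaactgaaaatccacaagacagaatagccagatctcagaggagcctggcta
IFIT3, chr10:89327747-89328046: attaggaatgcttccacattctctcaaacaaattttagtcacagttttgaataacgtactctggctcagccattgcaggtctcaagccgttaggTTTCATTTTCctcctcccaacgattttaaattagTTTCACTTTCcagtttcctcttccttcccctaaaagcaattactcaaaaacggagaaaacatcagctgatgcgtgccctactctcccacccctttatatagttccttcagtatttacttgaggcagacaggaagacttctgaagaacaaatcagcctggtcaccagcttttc
IFIT3 at its second start, chr10:89332279-89332578: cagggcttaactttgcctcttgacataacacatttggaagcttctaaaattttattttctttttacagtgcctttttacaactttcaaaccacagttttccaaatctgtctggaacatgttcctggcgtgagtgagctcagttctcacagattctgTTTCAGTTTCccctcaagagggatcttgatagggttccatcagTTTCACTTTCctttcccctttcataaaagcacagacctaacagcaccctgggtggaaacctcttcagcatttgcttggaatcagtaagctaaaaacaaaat
IFIT5, chr10:89414318-89414617: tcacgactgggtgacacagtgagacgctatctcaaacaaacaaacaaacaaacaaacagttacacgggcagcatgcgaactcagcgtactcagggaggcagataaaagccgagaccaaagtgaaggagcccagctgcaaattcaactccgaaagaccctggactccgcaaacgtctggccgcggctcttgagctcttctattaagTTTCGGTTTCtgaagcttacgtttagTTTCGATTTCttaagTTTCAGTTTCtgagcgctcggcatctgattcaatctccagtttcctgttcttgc
IFIT1B, chr10:89377806-89378105: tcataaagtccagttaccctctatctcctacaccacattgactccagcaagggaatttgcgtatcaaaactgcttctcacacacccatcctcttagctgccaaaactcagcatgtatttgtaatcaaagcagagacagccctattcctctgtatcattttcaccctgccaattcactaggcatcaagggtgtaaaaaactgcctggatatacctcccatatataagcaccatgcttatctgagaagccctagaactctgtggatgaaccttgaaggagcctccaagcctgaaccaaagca

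The 4 windows of IFIT1, IFIT3 and IFIT5 held at least 2 matches each, and every match read TTTCNNTTTC on the plus strand. The IFIT1 window held 2, starting at -116 and -103 from the start site. Each IFIT3 window held 2, at -156 and -122 and, for the other start, at -94 and -51. IFIT5 held 3, at -45, -19 and -4, and IFIT1B held 0. Of all 35116 promoter windows of this length, 3.57% held a match and 0.259% held 2 or more. Among windows of the listed interferon-stimulated effector genes, 27 of 45 held a match. A match describes letters only and is not a measured binding site.

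The deepest library had 37508780 counts and the shallowest 23088295. UBE3D was at 13.2, 15.8 and 14.5 CPM (read counts scaled to the effective library size) in the KO libraries, 19.5, 21.4 and 26.6 in WT and 3349, 3290 and 2742 with UBE3D put back, so its RNA was still present in KO cells and far above WT in addback cells. Its log2 fold in KO against WT was -0.62 ± 0.13 (edgeR adjusted p = 0.00412). HEK293 markers (IRS4, PAX2, NEFM, NEFL, LIN28B, EYA1) were detected in every library, with summed levels of 461 to 565 CPM in KO, 631 to 681 in addback and 1118 to 1164 in WT. IRS4 made up most of the WT sum, at 837 ± 28.1 CPM in WT, 213 ± 47.7 in KO and 332 ± 23.4 in addback. In KO against WT the log2 folds were -1.97 for IRS4, -2.38 for PAX2, -0.61 for NEFM, 0.25 for NEFL, 0.01 for LIN28B and 0.07 for EYA1. WT and addback libraries also carried reads over tissue-restricted genes such as odorant receptors: 95.9% to 96.8% of 531 such genes had a count there, against 13.4% to 17.1% in KO. The median over these genes was 25.6, 84.1 and 97.7 counts per kilobase of coding sequence in WT, 22.2, 104 and 101 in addback and 0 in KO. The background of a gene was estimated as its coding length times this median, and results that changed with it subtracted are given both ways.

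The IFIT RNAs were abundant in addback cells and scarce in KO and WT cells, IFIT5 less so. IFIT1, which binds incompletely methylated caps, had 132, 112 and 161 counts in the KO libraries, 239, 288 and 298 in WT and 23011, 18931 and 27701 in addback. Those are 4.89, 4.09 and 4.18 scaled CPM in KO, 8.05, 8.31 and 13.4 in WT and 818, 612 and 938 in addback. All addback libraries lay above all others, as for 60.3% of all genes tested against KO and 10.3% against WT, and all KO libraries lay below all WT libraries.

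IFIT2, a partner of IFIT1 that also promotes cell death when overproduced, was at 1.33, 1.24 and 1.37 CPM in KO, 2.83, 4.42 and 6.08 in WT and 468, 310 and 599 in addback. Its counts were only 34 to 53 in KO and 84 to 153 in WT, and 9597 to 17701 in addback. IFIT3, which stabilises IFIT1 and strengthens its cap binding, was at 2.08, 2.37 and 2.23 CPM in KO, 4.04, 4.85 and 9.23 in WT and 437, 309 and 514 in addback. Both genes had the same order of groups as IFIT1, without overlap. In all 3 genes addback replicate 2 was the lowest addback library and replicate 3 the highest.

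IFIT5, the member that binds triphosphate RNA, was the most abundant member in KO and WT cells. It was at 36.0, 37.4 and 34.9 CPM in KO, 32.0, 31.5 and 37.4 in WT and 229, 201 and 246 in addback. KO and WT libraries overlapped, and addback libraries lay above both. In counts it had 972 to 1345 in KO, 831 to 1090 in WT and 6221 to 7266 in addback. Its spread among addback libraries was also the smallest of the 4, with a coefficient of variation of 10.0% against 20.9% for IFIT1, 24.6% for IFIT3 and 31.5% for IFIT2.

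**Figure D1:**
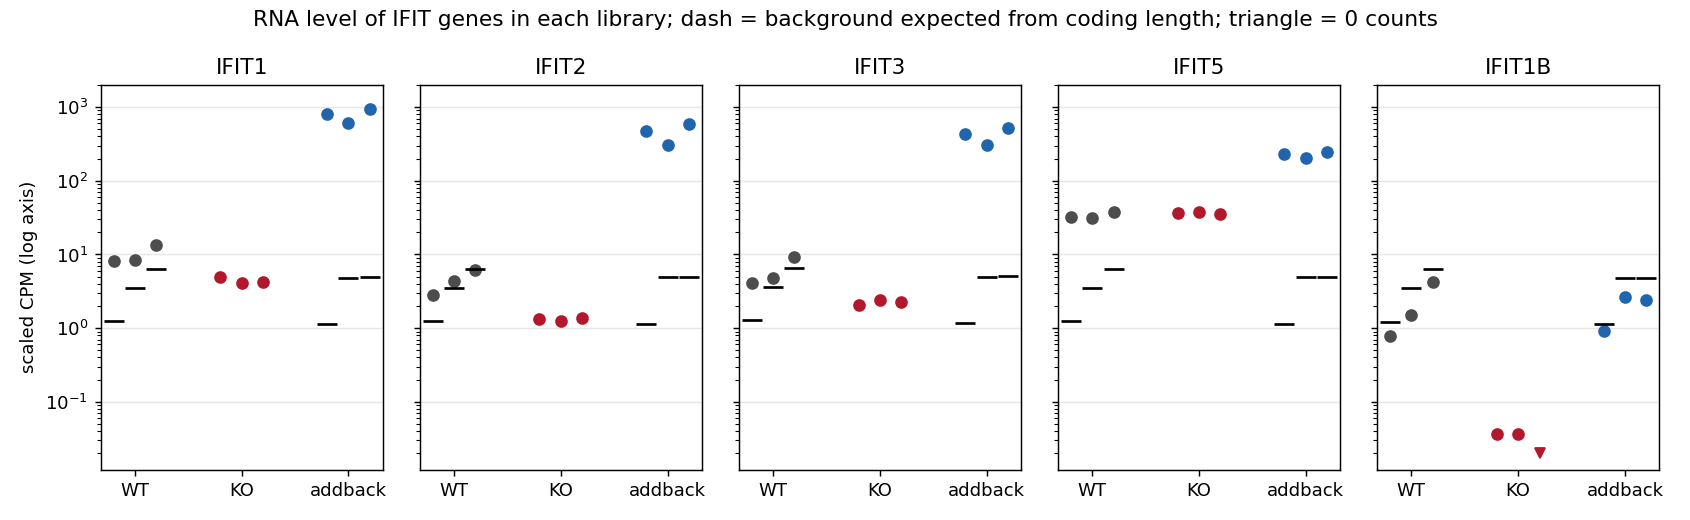
Scaled CPM (log axis) of each IFIT gene and of IFIT1B in the 9 libraries, grouped as WT, KO and addback; points are libraries in replicate order, dashes are the estimated background and a triangle marks 0 counts. IFIT1 spans 4.09 to 938 CPM, whereas IFIT5 is between 31.5 and 37.4 in all KO and WT libraries and between 201 and 246 in addback.

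Per kilobase of transcript, the scale on which different genes can be compared, IFIT1 was at 167 ± 34.8 RPKM (SD, n = 3) in addback, IFIT3 at 148 ± 36.4, IFIT2 at 131 ± 41.4 and IFIT5 at 55.8 ± 5.60. The means of IFIT1, IFIT3 and IFIT2 lay within 1 SD of their neighbours in that order, and IFIT5 lay below all 3 in every addback library. In addback cells 235 genes had a higher mean RPKM than IFIT1, and 1085 had a higher one than IFIT5. In KO cells the order was IFIT5 at 8.95 ± 0.308 RPKM, IFIT1 at 0.928, IFIT3 at 0.784 and IFIT2 at 0.377. In WT cells IFIT5 was at 8.34 ± 0.812, IFIT3 at 2.13, IFIT1 at 2.10 and IFIT2 at 1.27.

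The make-up of the family therefore differed between groups. The 4 genes together had 1196, 1234 and 1645 counts in KO, 1395, 1699 and 1469 in WT and 54912, 44314 and 67845 in addback. IFIT5 made up 81.1% ± 0.667 (SD, n = 3) of the family total per kilobase in KO, 66.9%, 62.2% and 54.2% in the WT libraries and 11.4% ± 1.67 in addback. IFIT1 went the other way, at 8.41% ± 0.860 in KO, 15% ± 1.40 in WT and 33.4% ± 0.957 in addback. IFIT2 took 3.42% in KO, 9.02% in WT and 25.8% in addback. IFIT3 took 7.11%, 14.9% and 29.4% in the same order. The KO and WT shares did not overlap for any of the 4 genes (two-sided exact permutation p = 0.1 each, the smallest that 3 against 3 libraries can give). With the estimated background subtracted, the WT shares were 76.2% ± 3.70 for IFIT5 and 13.4% for IFIT1 (exact permutation p = 0.1 each against KO), 2.42% for IFIT2 (exact permutation p = 0.7) and 7.98% for IFIT3 (exact permutation p = 0.6).

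**Figure D2:**
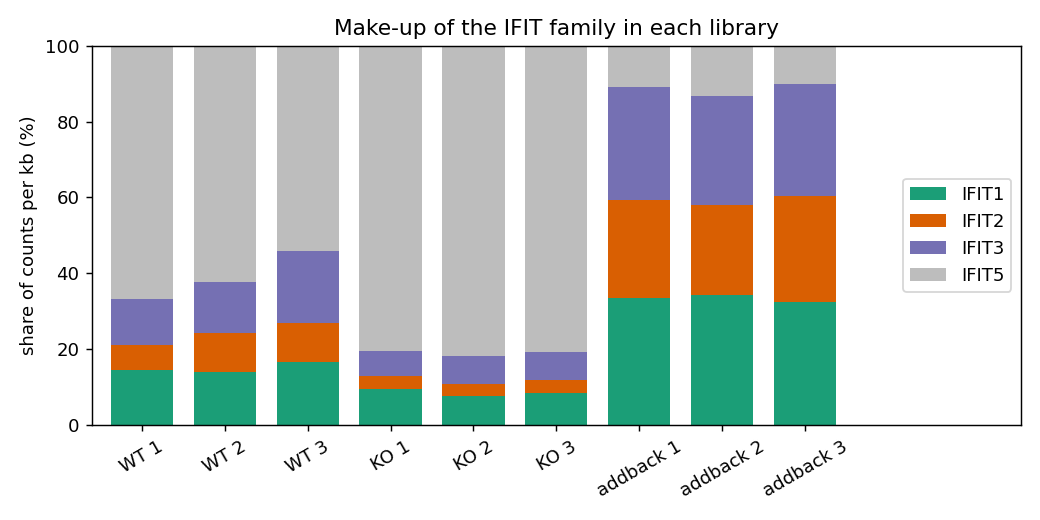
Share of each IFIT gene in the family total per kilobase (percent, stacked bars from 0 to 100) in each of the 9 libraries. IFIT5 fills 81.1% of the KO mean and 11.4% of the addback mean, with WT libraries at 54.2% to 66.9%.

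Against KO, addback cells had 181 times the IFIT1 RNA, a log2 fold of 7.50 ± 0.25 (standard error). The log2 fold was 8.43 ± 0.36 for IFIT2 (346-fold), 7.56 ± 0.32 for IFIT3 (188-fold) and 2.64 ± 0.09 for IFIT5. Against WT the same addback libraries gave log2 folds of 6.35 ± 0.23 for IFIT1, 6.73 ± 0.31 for IFIT2, 6.17 ± 0.29 for IFIT3 and 2.75 ± 0.09 for IFIT5. These 2 comparisons share the addback libraries, so they are not independent of each other. In addback against WT, UBE3D alone of the genes tested had a higher fold than IFIT2, 2 genes had a higher one than IFIT1, 3 than IFIT3 and 36 than IFIT5. As background, edgeR called 49.0% of the 21994 genes tested higher in addback than in KO and 4.31% higher and 4.87% lower in addback than in WT. Nothing is read from the members' place among these, since these contrasts chose them. The estimated background came to at most 2.42% of any member's count in addback, but the WT denominators hold more of it, and without it the folds against WT were 7.02, 9.0 and 7.59 for IFIT1, IFIT2 and IFIT3.

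KO against WT was the comparison that did not choose the genes. IFIT1 was lower in KO, at 4.39 ± 0.441 against 9.92 ± 3.03 CPM, with a log2 fold of -1.15 ± 0.27 (edgeR adjusted p = 0.00645). IFIT2 was lower at 1.32 ± 0.0681 against 4.44 ± 1.62 CPM, a log2 fold of -1.71 ± 0.48 (edgeR adjusted p = 0.0137). IFIT3 was lower at 2.23 ± 0.149 against 6.04 ± 2.79 CPM, a log2 fold of -1.38 ± 0.40 (edgeR adjusted p = 0.0146). IFIT5 was at 36.1 ± 1.24 against 33.6 ± 3.27 CPM and did not pass, with a log2 fold of 0.10 ± 0.09 (edgeR adjusted p = 0.324). So 3 of 4 members were called lower, where edgeR called 52.4% of all genes tested lower in KO and 9.58% higher. The groups did not overlap for those 3 members, as for 58.4% of all genes tested that were lower in KO throughout. The median log2 fold over all genes tested was -0.47 in this comparison, and with scaling factors taken from all genes it was -0.12.

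These calls moved with the background reads in WT. For IFIT1 the estimated background was 15.4%, 41.9% and 47.0% of the counts in WT libraries 1 to 3. For IFIT2 it was 44.2%, 79.7% and 105%, and for IFIT3 31.5%, 73.9% and 70.3%. It was 3.90%, 11.2% and 17% for IFIT5 in the same libraries, and 0 in KO for every member. The WT library with the most of it, replicate 3, was also the highest WT library of all 4 genes in scaled CPM. The estimate rests on a median, and single genes varied widely around it. Most tissue-restricted genes had 0.327 to 2.21, 0.266 to 3.39 and 0.25 to 2.26 times their expected count in WT libraries 1 to 3. For IFIT1 in WT replicate 2 this range gave 32.1 to 408.5 background counts, beside 288 observed. Percentages and subtracted levels of a single gene are uncertain to that extent.

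With the estimated background subtracted, IFIT1 was at 6.81, 4.83 and 7.11 CPM in WT against 4.39 ± 0.441 in KO, and the log2 fold of -0.57 no longer passed (edgeR adjusted p = 0.15). IFIT3 was then at 2.77, 1.27 and 2.74 CPM in WT against 2.23 in KO, a log2 fold of -0.04 (edgeR adjusted p = 0.954). IFIT2 was at 1.58, 0.898 and -0.296 CPM in WT against 1.32 in KO, and its direction turned to a log2 fold of 0.48 (edgeR adjusted p = 0.69). With this estimate subtracted, no difference of IFIT1, IFIT2 or IFIT3 between KO and WT was called. The estimate is itself uncertain at this locus. For IFIT1B it gave 36.5, 120 and 139 counts in WT libraries 1 to 3, where 23, 53 and 94 were observed. Whether the 3 genes differ apart from the background cannot be told from such an estimate. Without WT replicate 3 the calls of IFIT2 (log2 fold -1.47, edgeR adjusted p = 0.0618) and IFIT3 (-1.0, adjusted p = 0.0537) were also lost, while IFIT1 kept its call at -0.91 (adjusted p = 0.0206).

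For IFIT5 the scaling decided the call. Factors from all genes gave a log2 fold of 0.44 (edgeR adjusted p = 0.00749), upper quartile factors 0.23 (edgeR adjusted p = 0.0392) and DESeq2 0.36 (adjusted p = 0.00339), each higher in KO. Subtracting the background gave 0.19 (edgeR adjusted p = 0.11). In the authors' deposited table IFIT5 had a log2 fold of 0.32 in KO against WT (adjusted p = 0.00361), and IFIT1, IFIT2 and IFIT3 had -0.78, -1.43 and -1.01. The authors' deposited table for addback against KO listed log2 folds of 7.22, 8.16, 7.28 and 2.38 for IFIT1, IFIT2, IFIT3 and IFIT5.

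**Figure D3:**
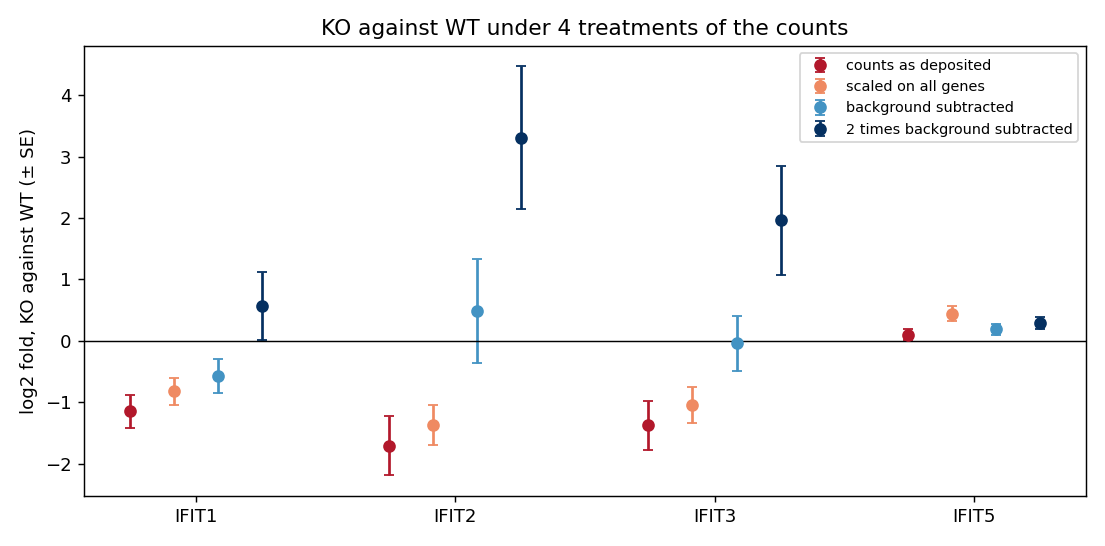
Log2 fold in KO against WT with its standard error for each IFIT gene under 4 treatments: counts as deposited, scaling on all genes, and the background subtracted once or 2 times; 0 is no difference. IFIT1, IFIT2 and IFIT3 run from -1.15, -1.71 and -1.38 to 0.57, 3.31 and 1.96 as more background is subtracted, while IFIT5 is between 0.10 and 0.44.

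The authors also listed transcription past gene ends, as regions that start 1 base after a gene. Such regions followed IFIT3 (89340969-89349768, 8800 bases), IFIT1 (89406488-89414569, 8082 bases) and IFIT5 (89421003-89427002, 6000 bases) on chromosome 10. The IFIT1 region filled the whole gap of 8080 bases to IFIT5, the next gene on the same strand, and ran just past its start. Only reads at that end could also come from annotated IFIT5, and the source of the reads was not tested. In addback against KO the authors' deposited table gave shrunken log2 folds of 5.38 ± 0.35 for the IFIT3 region, 2.66 ± 0.34 for the IFIT5 region and 1.97 ± 0.18 for the IFIT1 region. None of the 2396 regions had a higher fold than that of IFIT3, and 9 had a higher one than that of IFIT5. As background, 18.6% of the regions were called higher in addback, and this contrast chose the genes. The region of IFIT1 had a smaller fold than its gene in these tables (1.97 against 7.22), while the IFIT5 region (2.66) and gene (2.38) were close.

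Between KO and WT none of the 3 regions passed in the authors' deposited table. Its unshrunken log2 folds were 0.48 ± 0.43 for IFIT3 (adjusted p = 0.386), -0.35 ± 0.17 for IFIT1 (adjusted p = 0.0825) and 0.31 ± 0.34 for IFIT5 (adjusted p = 0.512). Of all 2541 regions there, 24.8% were called higher and 25.0% lower in KO. The region tables hold no values per library, and region and gene folds were not tested against each other.

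Along the chromosome, the 10 genes around the IFIT cluster had log2 folds from -0.41 to 6.24 in addback against KO. LIPA, a lysosomal lipase whose start is at -88.4 kb from that of IFIT2, had a log2 fold of 0.23 ± 0.05 in addback against KO (edgeR adjusted p = 0.00483). KIF20B, a mitotic kinesin at 399.6 kb, had -0.02 (edgeR adjusted p = 0.897). FAS, a death receptor, had 0.61 ± 0.20 (edgeR adjusted p = 0.0259), and PANK1, a pantothenate kinase, had 0.25 (adjusted p = 0.0494). ACTA2, smooth muscle actin, was the neighbour called in all 3 comparisons. Its log2 fold was 0.62 ± 0.17 in addback against KO (edgeR adjusted p = 0.0133), 1.33 ± 0.17 against WT (adjusted p = 0.00168) and 0.71 ± 0.17 in KO against WT (adjusted p = 0.00709). STAMBPL1, a deubiquitinase, and ACTA2-AS1, antisense to ACTA2, were not called in addback against KO (0.36, edgeR adjusted p = 0.1, and -0.41, adjusted p = 0.461). In all, 7 of 10 neighbours were called higher in addback than in KO and 1 of 10 higher than in WT, beside 49.0% and 4.31% of all genes. With background subtracted 2 of the 7 stayed called, LIPA (edgeR adjusted p = 0.0121) and ACTA2 (adjusted p = 0.0336), beside 4097 of all genes. FAS (edgeR adjusted p = 0.0576) and PANK1 (adjusted p = 0.361) did not, and IFIT1B could not be tested then. The folds also depended on scaling. With factors from all genes, log2 folds in addback against KO were -0.07 for LIPA, 0.32 for ACTA2, 0.30 for FAS and -0.06 for PANK1.

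The 3 neighbours with the largest folds in addback against KO were those with the most background. IFIT1B had 1, 1 and 0 counts in KO, 23, 53 and 94 in WT and 26, 81 and 72 in addback. The estimated background alone came to 122%, 183% and 199% of its addback counts and 159%, 226% and 148% of its WT counts. IFIT1B, whose window held no match, thus had fewer counts than the estimated background in every WT and addback library, and its addback and WT levels were 1.99 ± 0.930 and 2.18 ± 1.82 CPM. CH25H, cholesterol 25-hydroxylase, had a log2 fold of 4.85 (edgeR adjusted p = 0.00318) that was 3.41 with background subtracted (adjusted p = 0.0737). SLC16A12, a monocarboxylate transporter, had 2.49 (edgeR adjusted p = 0.00605) and 0.69 with background subtracted (adjusted p = 0.576).

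**Figure D4:**
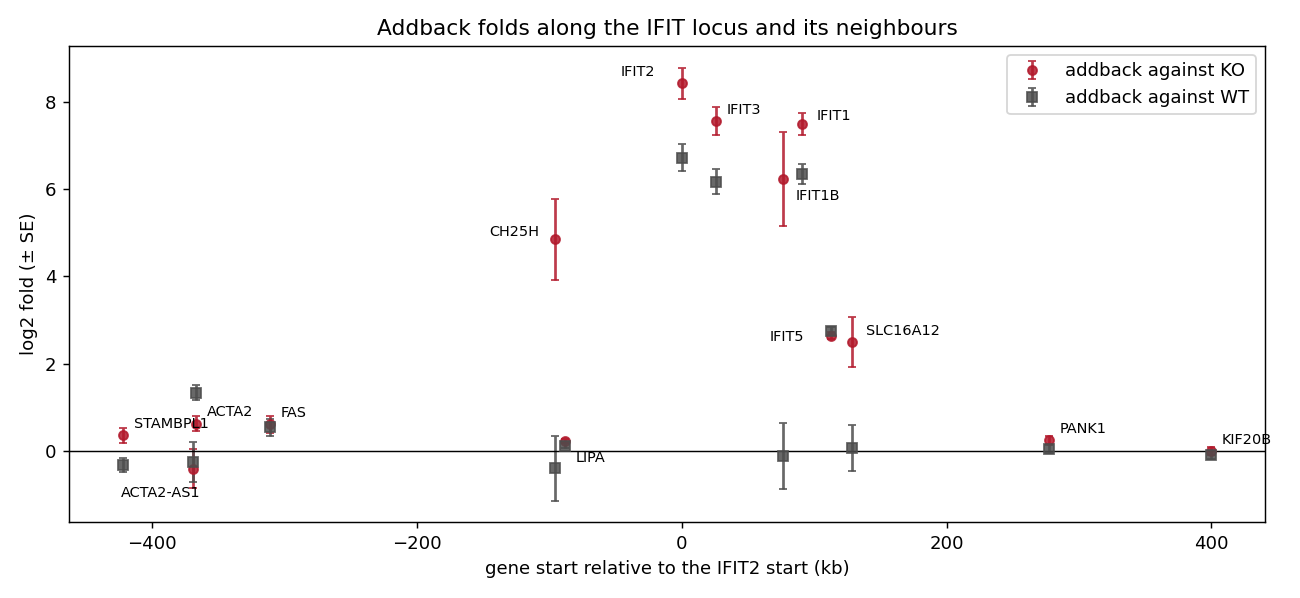
Log2 fold with standard error of the IFIT genes and 10 neighbours against the distance of each start from that of IFIT2 (kb), for addback against KO and addback against WT. The 4 IFIT genes reach 2.64 to 8.43; IFIT1B, CH25H and SLC16A12 are at 6.24, 4.85 and 2.49 against KO and at -0.12, -0.40 and 0.07 against WT.

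The pathway that leads to IFIT transcription was read from lists of its genes. Of 38 other interferon-stimulated effector genes, 38 rose in addback against KO and 35 rose against WT by edgeR, beside 49.0% and 4.31% of all genes. Their median log2 fold was 4.24 against KO and 3.04 against WT, where the medians over all genes were 0.45 and 0.00. RSAD2 (viperin), which blocks viral replication, was at 179 ± 70.2 CPM in addback against 3.73 ± 2.67 in WT, a log2 fold of 5.66 ± 0.47 (edgeR adjusted p = 0.000129). ISG15, a ubiquitin-like modifier, was at 343 ± 65.8 against 9.21 ± 1.20 CPM (log2 fold 5.21 ± 0.16, edgeR adjusted p = 8.27e-07). MX1 (0.71, edgeR adjusted p = 0.467), GBP1 (0.56, adjusted p = 0.87) and SAMD9L (0.39, adjusted p = 0.983) were the 3 that did not pass against WT.

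Some effectors were near 0 in KO, and levels say more than folds there. IFI44L was at 97.9 ± 26.6 CPM in addback and 0.0489 ± 0.0557 in KO, and IFI44 was at 68.6 ± 26.1 and 0.0506. The RNA-activated synthetases OAS1 and OAS2 were at 92.7 ± 27.6 and 126 ± 47.9 CPM in addback and at 0.0503 and 0.125 in KO. Between KO and WT, 23 of the 38 effectors fell in KO and 2 rose, with a median of -0.80, beside 52.4% and 9.58% of all genes. With background subtracted 7 fell and 4 rose, beside 5379 and 2057 of all genes.

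**Figure D5:**
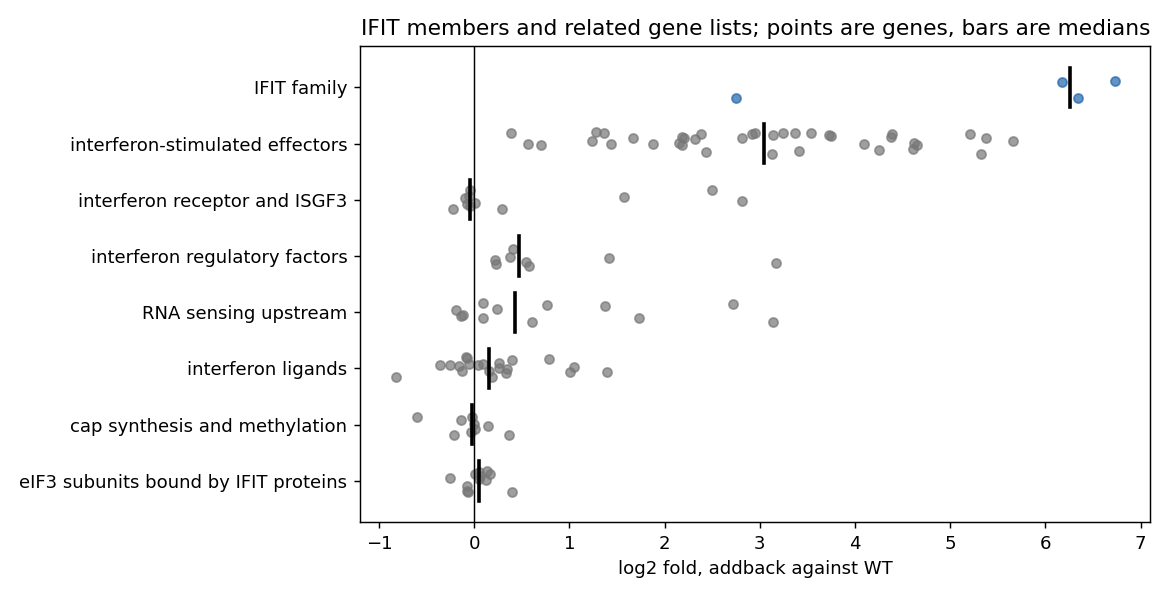
Log2 fold in addback against WT for the IFIT genes and for each tested gene of the pathway lists, 1 point per gene, with the list median as a bar. The effector median is 3.04, and IFIT1, IFIT2 and IFIT3 are at 6.17 to 6.73.

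Upstream, IRF9 and STAT2, which belong to ISGF3, rose in addback against KO. Of 11 receptor and ISGF3 genes, 5 rose and 1 fell, close to the 49.0% of all genes called higher, and 4 of 11 rose against WT, beside 4.31%. With factors from all genes 3 rose and 4 fell against KO, beside 8364 and 4791 of the 21994 genes tested. IRF9 was at 107 ± 6.95 CPM in addback against 16.9 ± 0.660 in KO, a log2 fold of 2.66 ± 0.10 (edgeR adjusted p = 2.35e-06), and STAT2 had 1.84 ± 0.12 (adjusted p = 6.08e-05). IFNLR1, a subunit of the interferon lambda receptor, was at 0.38 (edgeR adjusted p = 0.00323), which did not pass with background subtracted (0.23, adjusted p = 0.0773). In KO, 1 of the 11 was higher than in WT and 3 were lower, beside 9.58% and 52.4% of all genes. IFNAR2, the high-affinity chain of the type I receptor, had a log2 fold of -0.57 ± 0.07 there (edgeR adjusted p = 0.000708). With factors from all genes 5 of the 11 rose and 0 fell in KO, beside 5315 and 8227 of the 21994 genes.

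Among 8 interferon regulatory factors, 6 rose in addback against KO and 4 rose against WT, beside 49.0% and 4.31% of all genes. With background subtracted 3 rose against KO, beside 4097 of all genes. IRF7, which amplifies interferon production, was at 131 ± 17.2 CPM in addback against 11.3 ± 1.8 in KO (log2 fold 3.54 ± 0.17, edgeR adjusted p = 1.57e-05), and IRF1 had 1.55 ± 0.13 (adjusted p = 0.000283). IRF8 (1.57) and IRF4 (1.52) lost the call with background subtracted (edgeR adjusted p = 0.408 and 0.163). Against WT, 1 of the 8 rose in KO, and 2 fell, a smaller share than the 52.4% of all genes, namely IRF2 (-0.54, edgeR adjusted p = 0.00849) and IRF4 (-1.15, adjusted p = 0.0288); neither fall passed with background subtracted (adjusted p = 0.111 and 0.638).

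Of 12 genes that sense foreign RNA or DNA or signal onward, 9 rose and 1 fell in addback against KO, and 4 rose against WT. With background subtracted 5 rose and 0 fell against KO, beside 4097 and 1125 of all genes. MB21D1 (cGAS) and TMEM173 (STING), of DNA sensing, were among the 12. TMEM173 was among the 9 that rose (log2 fold 0.53, edgeR adjusted p = 0.00238) and among the 5 (adjusted p = 0.0137). Of all genes 49.0% were called higher and 7.77% lower against KO, and 4.31% higher against WT. DDX58, which encodes the cytosolic sensor RIG-I, was at 197 ± 38.9 CPM in addback against 8.18 ± 0.591 in KO (log2 fold 4.59 ± 0.27, edgeR adjusted p = 3.48e-05). IFIH1, which encodes the sensor MDA5, had 4.33 ± 0.38 (edgeR adjusted p = 0.000399). TLR3, an endosomal RNA receptor, and DHX58, a relative of RIG-I, had 3.65 and 3.44, and neither passed with background subtracted (edgeR adjusted p = 0.237 and 0.126). Against WT, 9 of the 12 fell in KO, beside 52.4% of all genes, led by TLR3 (-3.04) and DHX58 (-2.07). Without the background 2 fell, beside 5379 of all genes, and TLR3 and DHX58 had -0.08 and -0.67.

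The interferon ligands had few counts, of which background could be a large part. Their 21 genes had 11, 13 and 18 counts in all in KO, 596, 1915 and 1899 in WT and 802, 2451 and 2654 in addback, where the estimated background came to 268, 1257 and 1217; in WT it was 309, 1015 and 1179. All 21 were called higher in addback than in KO, beside 49.0% of all genes, and all 21 lower in KO than in WT, beside 52.4%. In addback against WT edgeR called 0, beside 9.19% of all genes in either direction. There 0 had an unadjusted p under 0.05, and DESeq2 called 0. With background subtracted 1 of 16 that could be tested was called against WT, namely IFNB1, the gene for interferon beta (edgeR adjusted p = 0.0194; 0.353 as deposited), singled out after its values were seen. It was at 2.19 ± 0.834 CPM in addback, 0.839 ± 0.601 in WT and 0 in KO as deposited. With background subtracted 15 of the 16 were still called higher in addback than in KO and 14 lower in KO than in WT. Of all genes 4097 and 5379 then were. In addback against WT 1368 of all genes were then called higher and 1373 lower. Genes for interferon alpha are near-identical copies, so reads may be split among them. IFNA6, IFNA2, IFNA14 and IFNA17, which led the list, had 0 counts in KO and 3.01 to 4.27 CPM in addback. IFNA14 and IFNA6 were at 3.88 and 3.77 CPM in WT.

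Blood cell markers, listed because such cells could bring interferon-response RNA, summed to 27.9 to 34.4 CPM in KO, 41.0 to 121 in WT and 49.4 to 96.4 in addback. HBB, a globin, made up most of the KO sum, with a mean of 27.95 CPM there, 29.4 in WT and 32.5 in addback. PTPRC, the leukocyte antigen CD45, was at 0.332 ± 0.0990 CPM in KO, 10.9 ± 6.20 in addback and 20.5 ± 20.1 in WT. In all, 7 of the 8 markers were called higher in addback than in KO, beside 49.0% of all genes. With background subtracted 1 was, beside 4097 of all genes. Of the 8 markers, 1, 0 and 1 were at 0 in the KO libraries and 0 in all others. Their estimated background was 284.8 to 1336 of 1391 to 2849 summed counts in addback. In addback against WT edgeR called 0 of the markers, beside 9.19% of all genes in either direction. There 0 had an unadjusted p under 0.05 and DESeq2 called 0. The part of these markers in the IFIT levels was not tested.

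Genes for the making and binding of caps, and for an initiation factor that IFIT proteins bind, were listed too. Of 9 genes for cap synthesis, methylation and binding, 1 rose and 3 fell in addback against KO, beside 49.0% and 7.77% of all genes. CMTR1, which adds the ribose methyl group that hides a cap from IFIT1, was at 173 ± 7.91 CPM in addback against 127 ± 2.86 in KO (log2 fold 0.45 ± 0.04, edgeR adjusted p = 0.000344). With factors from all genes its log2 fold was 0.15, and 0 of the 9 rose and 6 fell, beside 8364 and 4791 of the 21994 genes tested. RNMT, which methylates the cap guanine, NCBP2 and EIF4E, which bind caps, had -0.17, -0.16 and -0.12, and with background subtracted NCBP2 (edgeR adjusted p = 0.0967) and EIF4E (adjusted p = 0.126) did not pass. Against WT 1 rose and 3 fell, beside 4.31% and 4.87%. KO against WT gave 2 that rose and 1 that fell, beside 9.58% and 52.4% of all genes. Among them NCBP1, a nuclear cap-binding subunit, had -0.60 ± 0.06 (edgeR adjusted p = 0.000364). FAM103A1, a partner of RNMT, had 0.29 (adjusted p = 0.0243), which did not pass with background subtracted (adjusted p = 0.0953). With factors from all genes 6 of the 9 rose and 1 fell in KO, beside 5315 and 8227 of the 21994 genes.

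Of 12 tested subunits of eIF3, the initiation factor that IFIT1 and IFIT2 bind, 9 fell in addback against KO and 10 rose in KO against WT, beside 7.77% and 9.58% of all genes. With background subtracted 4 fell in addback against KO and 7 rose in KO against WT, beside 1125 and 2057 of all genes. The changes were small. EIF3I had -0.42 ± 0.06, EIF3E -0.25 ± 0.04, EIF3B -0.21 and EIF3L -0.19 in addback against KO, of which EIF3B did not pass with background subtracted (edgeR adjusted p = 0.0505), and EIF3D had 0.52 ± 0.04 in KO against WT (edgeR adjusted p = 9.64e-05), with EIF3I at 0.36. With 2 times the background subtracted, 1 fell in addback against KO and 3 rose in KO against WT, beside 1062 and 1977 of all genes. In addback against WT 1 rose and 1 fell, beside 4.31% and 4.87% of all genes.

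The genes whose levels followed IFIT1, IFIT2 and IFIT3 most closely over the 9 libraries included CMPK2, SP110, EIF2AK2 and BST2. Their Pearson correlations with the mean of the 3 genes, on log2(scaled CPM + 1), were 0.998, 0.998, 0.997 and 0.996, among the 5 highest of 11663 genes with little background, and IFIT5 had 0.985. These values rest on 3 groups of libraries, of which 1 was far above the others, and describe that split. CMPK2, a mitochondrial nucleotide kinase, was at 157, 113 and 188 CPM in the addback libraries and 4.46 to 4.63 in KO. SP110, a nuclear body protein, was at 131, 116 and 162 in addback and 13.7 to 14.4 in KO. EIF2AK2, the RNA-activated kinase PKR, was at 215, 186 and 243 in addback and 62.0 to 67.1 in KO. As for IFIT1, IFIT2 and IFIT3, replicate 2 was the lowest and replicate 3 the highest addback library for each of these. They were picked by correlation over these same libraries, so the shared order largely describes that choice.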

How the data were processed

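Poly(A)-selected RNA of 9 HEK293 libraries was analysed from the deposited tables. Per the submitters' processing notes, cutadapt 1.8.1, STAR 2.5.2b and DESeq2 were used with hg38; for the counting program, annotation and strand setting, the sources used here name nothing. The authors deposited a count per gene and library, with gene lengths in bases, and result tables with base means (a signal of normalized counts), log2 fold changes with standard errors, a test score and p-values, for genes and for regions past gene ends. Deposited region starts were raised by 1 to be 1-based. The column names mark addback as KO with U, and the authors' deposited tables name that group as KO with UBE3D. No value column went unused.

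Symbols were matched to GENCODE release 29 (23899 directly, 26 through another symbol; 18604 with a coding length). In R 4.3.3, edgeR 4.0.16 was run on the counts: filterByExpr left 21994 genes, and 1 robust quasi-likelihood fit over all 9 libraries gave the 3 contrasts. TMM factors came from 7637 genes whose estimated background was 10% of mean CPM or less and whose coding sequence was 10% of gene length or more. A gene was called at a Benjamini-Hochberg adjusted p under 0.05 over all genes tested. RPKM used the deposited gene lengths. All 4 members passed the filter. A library's background was the median, over 531 tissue-restricted genes, of counts per coding kilobase. The procedure was tested on simulated data. The total counts, whose range the report gives, limit the precision of the low counts in KO and WT; no interval was set on pooled samples.

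The members and lists were chosen with earlier results of these data known. Genes named were the members, their neighbours, UBE3D, the 4 called genes of each list with the largest absolute fold in addback against KO, the 2 in KO against WT, and the 5 genes most like IFIT1, IFIT2 and IFIT3; effectors in addback against WT and genes that did not pass were named after their values were seen. Some genes that this rule selects are not reported here. Alternatives covered scaling (DESeq2 1.42.0 among them), filter, background, the replicate block and each library left out. Same-numbered libraries deviated together between addback and WT (correlations over all genes 0.91, 0.61 and 0.74) but not with KO (-0.04 to 0.02). Over the 7637 genes with little background the correlations were lower, at 0.59, 0.31 and 0.64, and 0.01 to 0.19 with KO. The numbers were taken to pair addback with WT alone, and the part of the background in these correlations was not tested. Replicates differed beyond sampling noise (chi-square over degrees of freedom 1.99 to 44.48).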

Additional observations from a re-analysis of the deposited data

How the results depend on the processing

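Of the results recomputed, 404 kept their direction and side of the threshold, or their size. Another 51 moved in size, 4 reversed direction, 5 gained a call and 4 lost a call. The members' addback folds are among those recomputed, and they describe how the genes were chosen. In KO against WT, subtracting the background gave log2 folds of -0.57 for IFIT1, 0.48 for IFIT2 and -0.04 for IFIT3, and subtracting 2 times the background turned them to 0.57, 3.31 and 1.96, none of them called. Leaving out 1 library gave -1.93 to -1.47 for IFIT2 and -1.57 to -1.0 for IFIT3, where leaving out WT replicate 3 ended both calls. IFIT5 gained a call with factors from all genes (0.44), upper quartile factors (0.23), DESeq2 (0.36), 2 times the background subtracted (0.29) and only the libraries with the least background (0.16). The last was chosen after seeing the data and assumes that a lone WT library varies like KO, though KO libraries differed less among themselves (chi-square over degrees of freedom 1.99 to 6.7) than WT libraries (27.41 to 44.48), so its calls carry no weight. IFIT5 in addback against KO was 2.34 with factors from all genes and 2.38 with DESeq2. Against WT, addback folds were 7.02, 9.0 and 7.59 for IFIT1, IFIT2 and IFIT3 with the background subtracted and 8.24, 11.91, 9.68 and, for IFIT5, 3.07 with 2 times the background subtracted.

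Counts over all genes depended on scaling. KO against WT gave 2106 genes called higher and 11525 lower. Higher were 5315 with factors from all genes, 3331 with upper quartile factors and 4994 with DESeq2, and lower were 5379 and 3254 with the background subtracted once and 2 times. In addback against KO 10771 were higher and 1710 lower. Higher were 4097 and 2386 with the background subtracted once and 2 times, and lower were 4791, 3257, 5242, 1125 and 1062 with all-gene factors, upper quartile factors, DESeq2 and the background subtracted once and 2 times. Between addback and WT 949 were higher and 1072 lower. All-gene factors gave 375 and 191, the fit of the 2 groups alone 563 and 590, and the libraries with the least background 1467 higher. Leaving out 1 library gave 567 to 929 higher, the fewest without addback replicate 2 and 597 without addback replicate 1, and 654 to 1012 lower, the fewest without addback replicate 2.

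Of the effectors, 2 were called higher in KO than in WT, but 4 with all-gene factors, DESeq2 or the background subtracted, 7 with 2 times the background, 6 with the libraries of least background, and 1 to 3 with 1 library left out (1 without KO replicate 1, KO replicate 3 or WT replicate 3). Called lower were 23, or 7 and 1 with the background subtracted once and 2 times. The cause of these shifts was not tested.

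With the replicate number as a block, log2 folds in KO against WT were -1.19, -1.8, -1.44 and 0.10 for IFIT1, IFIT2, IFIT3 and IFIT5, and in addback against WT 6.32, 6.66, 6.15 and 2.74. The block changed no call of a member. It gave 1278 higher and 1437 lower genes in addback against WT and 2350 and 12373 in KO against WT.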
